A study of Mus musculus with 8 samples.

Results

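The genes described here code for the factors that start protein synthesis and carry it forward. They were chosen by name: every protein-coding gene of the deposited gene count table whose symbol begins with Eif1 to Eif6 or with Eef1 or Eef2, leaving out the Eif2ak kinases and the Eif4ebp inhibitors. That gave 56 genes of 13588 in the table, of which 11298 are protein coding. RNA sequencing was done on BaF3 cells, a line of mouse pro-B cells that normally needs interleukin-3, here with the activated kinase Jak2V617F in every group. The controls carried a non-targeting hairpin (shNT control, 4 libraries), and the other cells carried 1 of 2 hairpins against the RNA-binding protein gene Ybx1 (sh1Ybx1 and sh2Ybx1, 2 libraries each). All groups were thus the same Jak2-mutated line in the same medium, and the labels do not say whether the libraries of a group came from separate cultures, so the tests measure only the spread between these libraries, which may be technical.

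Translation initiation in animal cells begins when eIF2, bound to GTP, delivers the initiator tRNA to the small ribosomal subunit, which carries eIF1, eIF1A, eIF3 and eIF5. The cap-binding group eIF4 recruits that complex to the mRNA, it scans for a start codon, and eIF5B then joins the large subunit. Elongation follows, in which eEF1A brings each aminoacyl-tRNA, the eEF1B subunits recharge eEF1A with GTP, and eEF2 moves the ribosome by a codon. Several of these mRNAs, with those of ribosomal proteins, begin with a run of pyrimidines and are known to be regulated through it at the level of translation.

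The libraries held 22779437 to 37549926 counts. Ybx1 itself checked the labels: it stood at 1731, 1631, 1607 and 1731 CPM in the shNT libraries, 129.6 and 143 CPM with sh1Ybx1, and 178 and 217 CPM with sh2Ybx1, where CPM stands for read counts scaled to a fixed library total after TMM scaling. The knockdown libraries kept 8.14% of the shNT level with sh1Ybx1 and 11.8% with sh2Ybx1. The 4 shNT libraries differed among themselves more than the knockdown libraries did, with a biological coefficient of variation of 0.308 in shNT against 0.0758 in sh1Ybx1 and 0.0615 in sh2Ybx1, and 0.200 in shNT without replicate 4, which stood apart. Transcripts that move with RNA quality (4 mitochondrial mRNAs, Malat1 and Neat1) summed to 5573 to 20453 CPM in shNT and 17749.6 to 31833 CPM in the knockdown libraries, with 4 of the 6 called higher. The counts covered 3 of 10 B lymphoid genes. Of these, Cd79a and Cd79b were not called (log2 fold changes 0.17 and 0.02, adjusted p = 0.474 and 0.935). Ptprc was called higher, though not with sh2Ybx1 alone (adjusted p = 0.295). Likewise 4 of 6 myeloid genes and 2 of 3 tested mast cell genes were called higher, and 1 of each lower. With sh1Ybx1 alone 4 of the 6 myeloid genes were called higher, and with sh2Ybx1 alone 1. The summed mast cell genes had a mean of 988 CPM in shNT and 551 CPM in the knockdown libraries. Nearly all of that was Gata2, the mast cell gene called lower. Of 6 listed fibroblast genes the counts covered 2, Acta2 and Timp1. Both were called higher, and their sum was 2.26 to 5.33 CPM in shNT, 83.2 and 102 CPM in sh1Ybx1 and 3.92 and 3.48 CPM in sh2Ybx1. Timp1 reached at most 0.701 CPM in any library. Acta2 was not called with sh2Ybx1 alone (log2 fold change -0.21, adjusted p = 0.725). Of 4 listed genes of interleukin-3 dependent progenitors the counts covered 3, with 0 called. Their sum was 1095 to 3392 CPM in shNT and 3155 to 3697 CPM in the knockdown libraries. The part of any of these in the results below was not tested.

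In the cells with a hairpin against Ybx1, 14 of the 56 translation factor mRNAs fell and 1, that of Eif4a2, rose, with both hairpins pooled against shNT at an adjusted p under 0.05 (edgeR quasi-likelihood test, adjusted over all 13552 genes tested, n = 4 against 4). Over all genes tested, 14.2% were called lower and 14.8% higher, so the members' 25.0% lower lay above that share and their 1.79% higher lay below it. Among the protein-coding genes tested, 15.7% were called lower and 11.7% higher. With sh2Ybx1 alone the members' share lower, 8.93%, did not lie above the 9.45% of all genes tested. The median log2 fold change of the 56 was -0.22, beside -0.0039 over all genes tested and -0.06 over the protein-coding ones. All 56 passed the filter on low counts. In 11 members every knockdown library lay below every shNT library and in 3 every one lay above, against 15% and 16.6% of all genes tested. The steepest falls were those of Eif3c, Eef2 and Eif4b, to 42.0, 43.1 and 45.1% of the shNT level in the fit. The count moved when single libraries were left out: without replicate 1 or 2 of sh1Ybx1 it was 4 or 8 lower, without replicate 1 or 2 of sh2Ybx1 4 or 5 lower, in all 4 cases with 0 higher, while the share of all genes called was 3.92 to 6.61% lower and 5.43 to 8.40% higher. Without shNT replicate 4 it was 25 lower and 4 higher, against 26.7% and 23.6% of all genes, and without shNT replicate 1 it was 13 lower and 0 higher, against 11.8% and 10.8%. DESeq2 called Eef1g, Eif3b, Eif4e3, Eif4enif1 and Eif4g1 lower besides the 14, against 19.1% of all genes.

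**Figure D1:**
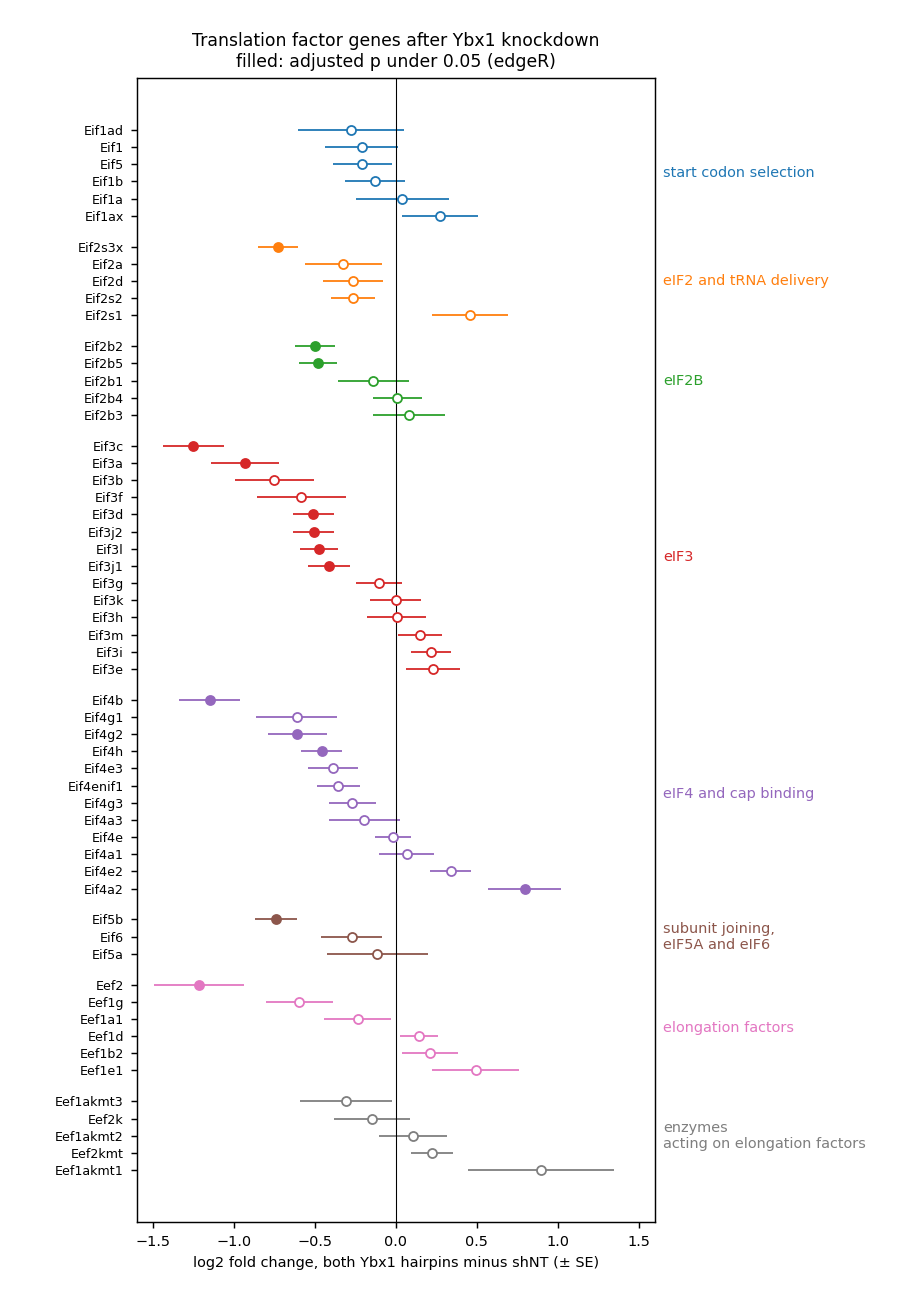
Log2 fold change of each of the 56 genes, both hairpins minus shNT, with its standard error as a bar and genes grouped by role; filled points passed an adjusted p under 0.05. The filled points lie between -1.25 (Eif3c) and -0.41 (Eif3j1), with Eif4a2 at 0.79 alone on the right.

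The scaffold eIF3, which holds the small subunit, the initiator tRNA complex and the mRNA together, had the most members lower: 6 of its 14 genes fell and 0 rose, with a median log2 fold change of -0.45. It is also the largest group, and its share of 42.9% lay near the 40% of the 5 eIF2B genes. Eif3c, a core subunit that binds eIF1 and eIF5, (chr7:126546455-126566411, GRCm38) stood at 435, 459.6, 650.4 and 696 CPM in the shNT libraries, 221 and 268 CPM with sh1Ybx1, and 222 and 232 CPM with sh2Ybx1. The 4 knockdown libraries lay close together and far below the lowest shNT library (log2 fold change -1.25, SE 0.19, adjusted p = 0.00400). Eif3a, the largest subunit and the one on which the complex assembles, (chr19:60761117-60790658, GRCm38) stood at 833, 1026, 952 and 1545 CPM in the shNT libraries, 486 and 589 CPM with sh1Ybx1, and 568 and 644 CPM with sh2Ybx1. The groups did not overlap, and the highest value by far was that of shNT replicate 4 (log2 fold change -0.93, SE 0.21, adjusted p = 0.0141). Eif3d, a subunit that can itself bind the cap, fell from 167, 169, 189 and 198 CPM in the shNT libraries to 106 and 138 CPM with sh1Ybx1, and 129 and 136 CPM with sh2Ybx1 (log2 fold change -0.51, SE 0.13, adjusted p = 0.0210). Eif3l fell from 266, 286, 299.5 and 329 CPM in the shNT libraries to 194 and 213 CPM with sh1Ybx1, and 214 and 228 CPM with sh2Ybx1, with no overlap (log2 fold change -0.48, SE 0.12, adjusted p = 0.0196).

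The loosely bound eIF3j subunit is coded by a pair of genes in the mouse, and both fell. Eif3j1 stood at 31.9, 40.6, 37.8 and 30.8 CPM in the shNT libraries, 21.6 and 21.9 CPM with sh1Ybx1, and 30.5 and 33.9 CPM with sh2Ybx1 (log2 fold change -0.41, SE 0.13, adjusted p = 0.0447), and Eif3j2 at 18.7, 20.2, 21.2 and 18.6 CPM in the shNT libraries, 9.87 and 11.3 CPM with sh1Ybx1, and 16.9 and 19.2 CPM with sh2Ybx1 (log2 fold change -0.51, SE 0.12, adjusted p = 0.0187). In each gene the libraries of sh1Ybx1 lay below every shNT library while those of sh2Ybx1 overlapped the shNT range. The coding sequences of the pair are identical over the 783 bases of the shorter one in the GENCODE M21 transcripts, so the counting may have split or shared their reads, and the values of each are uncertain. On the length-scaled TPM and FPKM values the fold change of Eif3j1 had the opposite sign, at 0.08 on the log2(TPM + 1) scale and 0.25 on the log2(FPKM + 1) scale (limma, adjusted p = 0.816 and 0.438).

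Eif3b, the other large scaffold subunit, missed the threshold at an adjusted p of 0.0506: it stood at 397, 508, 496 and 235 CPM in the shNT libraries, 215 and 268 CPM with sh1Ybx1, and 223 and 268 CPM with sh2Ybx1. There shNT replicate 4 fell into the knockdown range and the other shNT libraries lay above it. It was called lower with DESeq2, with RLE size factors and without shNT replicate 4. Eif3f had a log2 fold change of -0.58 and also missed (adjusted p = 0.141). The remaining subunits Eif3e, Eif3g, Eif3h, Eif3i, Eif3k and Eif3m had log2 fold changes of -0.10 to 0.23, with adjusted p of 0.217 to 0.997. Of these, Eif3e was called higher without shNT replicate 4. Without 1 library the calls of Eif3a (replicate 1 of either hairpin, adjusted p 0.0698 and 0.0719), Eif3d (replicate 1 of sh1Ybx1 or either of sh2Ybx1, 0.0647 to 0.101), Eif3l and Eif3j2 (any knockdown library, 0.0609 to 0.102 and 0.0515 to 0.103) and Eif3j1 (any knockdown library or shNT replicate 2 or 3, 0.0716 to 0.174) were lost. The call of Eif3c held without any single library.

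Among the 12 genes of eIF4 and cap binding, 3 fell and 1 rose. Eif4b, which stimulates the RNA helicase of the complex, (chr15:102073773-102097173, GRCm38) stood at 1311, 1178, 1263 and 1940.2 CPM in the shNT libraries, 599.5 and 703 CPM with sh1Ybx1, and 615 and 649.5 CPM with sh2Ybx1. All 4 knockdown libraries were below the lowest shNT library by a wide gap (log2 fold change -1.15, SE 0.19, adjusted p = 0.00513). Eif4h, a shorter relative of Eif4b with the same task, fell from 368, 424, 415 and 344 CPM in the shNT libraries to 258 and 303 CPM with sh1Ybx1, and 279 and 292 CPM with sh2Ybx1, with no overlap (log2 fold change -0.46, SE 0.13, adjusted p = 0.0296). Eif4g2, also known as DAP5, a scaffold protein that lacks the cap-binding part of eIF4G, stood at 1181, 1508, 1497 and 927 CPM in the shNT libraries, 1046 and 1107 CPM with sh1Ybx1, and 603 and 703 CPM with sh2Ybx1. Its sh2Ybx1 libraries lay below every shNT library, whereas those of sh1Ybx1 were within the shNT range (log2 fold change -0.61, SE 0.18, adjusted p = 0.0392).

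Eif4a2 was the 1 member that rose. This gene codes for a form of the eIF4A helicase that is a close relative of Eif4a1, and at chr16:23107444-23114136, GRCm38 it stood at 270.3, 286, 177 and 391 CPM in the shNT libraries, 464 and 405 CPM with sh1Ybx1, and 572 and 522 CPM with sh2Ybx1. Every knockdown library was above every shNT library, though sh1Ybx1 replicate 2 and shNT replicate 4 were near each other (log2 fold change 0.79, SE 0.23, adjusted p = 0.0322). Eif4a1, the main helicase, stood at 1235, 1556, 1419 and 993 CPM in the shNT libraries, 1259 and 1447 CPM with sh1Ybx1, and 1335 and 1406 CPM with sh2Ybx1, with groups that overlapped fully (log2 fold change 0.07, adjusted p = 0.794). The log2 ratio of Eif4a2 to Eif4a1 was -2.24 ± 0.69 in shNT and -1.48 ± 0.26 in the knockdown libraries (mean ± SD, n = 4 each). That difference of 0.76 was within the spread, with an exact 2-sided permutation p of 0.114, and 0.4 after adjustment over the 4 paralog pairs tested; the smallest p this design allows is 0.0286. The other pairs, Eif4g3 with Eif4g1, Eif3j2 with Eif3j1 and Eif1b with Eif1, had exact permutation p-values of 0.2, 0.314 and 0.686.

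The cap-binding protein gene Eif4e itself stood at 161, 186, 167 and 159 CPM in the shNT libraries, 152 and 163 CPM with sh1Ybx1, and 164 and 186 CPM with sh2Ybx1, and its log2 fold change was -0.02 (adjusted p = 0.915). The scaffold genes Eif4g1 and Eif4g3 had log2 fold changes of -0.61 and -0.27 (adjusted p = 0.0994 and 0.190). Eif4e2, a cap-binding relative known as a repressor of translation, was at 0.34 (adjusted p = 0.0762). Eif4e3, Eif4enif1 (the eIF4E transporter) and Eif4a3 (a helicase of the exon junction complex) were at -0.39, -0.36 and -0.19, none past the threshold. With shNT replicate 4 left out, Eif4g1, Eif4g3, Eif4e3, Eif4enif1 and Eif4a3 were called lower. Without 1 library the calls of Eif4h (any knockdown library, adjusted p 0.064 to 0.134), Eif4a2 (any knockdown library or shNT replicate 1 or 2, 0.0709 to 0.113) and Eif4g2 (any library but shNT replicate 4, 0.0561 to 0.152) were lost, and that of Eif4b held without any single library.

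**Figure D2:**
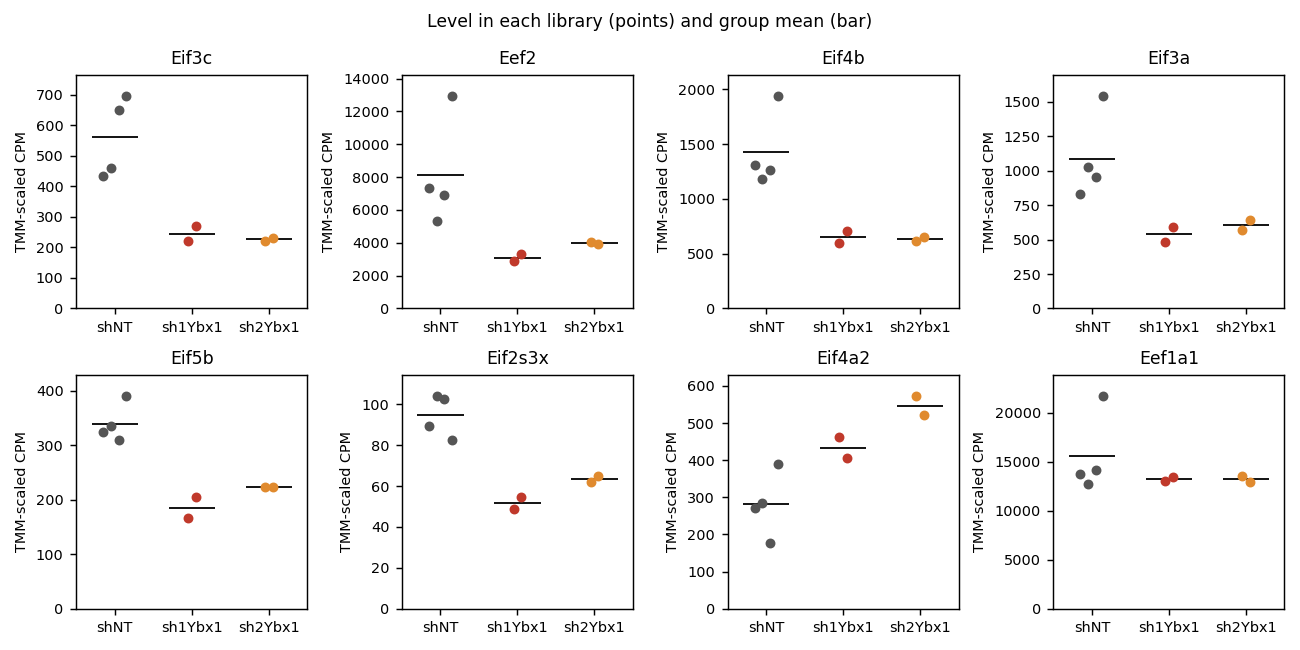
CPM after TMM scaling in each library (points) with the group mean (bar) for 8 genes; each panel has its own axis from 0. In the first 6 panels every knockdown point lies below every shNT point, in the Eif4a2 panel every one lies above, and in the Eef1a1 panel the groups overlap apart from shNT replicate 4.

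Of the 5 genes for eIF2 and tRNA delivery, 1 fell. Eif2s3x, the X-linked gene for the subunit that binds GTP and the initiator tRNA, (chrX:94188707-94212862, GRCm38) stood at 89.4, 104, 103 and 82.3 CPM in the shNT libraries, 48.9 and 54.5 CPM with sh1Ybx1, and 61.9 and 64.8 CPM with sh2Ybx1. The groups did not overlap and it fell with each hairpin alone (log2 fold change -0.73, SE 0.12, adjusted p = 0.00553). The regulatory subunit gene Eif2s1, whose protein is phosphorylated in the integrated stress response, stood at 176, 297, 228 and 133 CPM in the shNT libraries, 234 and 245 CPM with sh1Ybx1, and 328 and 359.8 CPM with sh2Ybx1, with a log2 fold change of 0.46 that missed the threshold (adjusted p = 0.173). Eif2s2, the third subunit, and the alternative tRNA delivery factors Eif2a and Eif2d were at -0.26, -0.32 and -0.27.

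The nucleotide exchange factor eIF2B, which recharges eIF2 with GTP, has 5 subunits, of which 2 fell. Eif2b5, the catalytic subunit, stood at 101, 114, 116 and 97.6 CPM in the shNT libraries, 63.9 and 74.1 CPM with sh1Ybx1, and 83.6 and 87.0 CPM with sh2Ybx1, with no overlap (log2 fold change -0.48, SE 0.12, adjusted p = 0.0173). Eif2b2, a regulatory subunit, stood at 59.7, 63.0, 71.5 and 57.2 CPM in the shNT libraries, 40.3 and 48.4 CPM with sh1Ybx1, and 42.4 and 46.8 CPM with sh2Ybx1, also with no overlap (log2 fold change -0.50, SE 0.12, adjusted p = 0.0190). Eif2b1, Eif2b3 and Eif2b4 had log2 fold changes of -0.14, 0.08 and 0.01. The calls of Eif2b5 and Eif2b2 were lost without replicate 1 of sh1Ybx1 or without either replicate of sh2Ybx1. The adjusted p was then 0.0568 to 0.0913 for Eif2b5 and 0.0529 to 0.0981 for Eif2b2. Eif2b1 was called lower without shNT replicate 4.

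The genes for start codon selection showed 0 calls among 6, with 0 also at an unadjusted p under 0.05. Eif1, which keeps the scanning complex open, stood at 469, 473, 564 and 906 CPM in the shNT libraries, 624 and 674 CPM with sh1Ybx1, and 417 and 417 CPM with sh2Ybx1. The sh1Ybx1 libraries were above 3 of the 4 shNT libraries and the sh2Ybx1 libraries were below all of them (log2 fold change -0.21, SE 0.22, adjusted p = 0.505). Eif1a, Eif1ad, Eif1ax, Eif1b and Eif5 had log2 fold changes from -0.28 (Eif1ad) to 0.27 (Eif1ax). DESeq2 called 0 of these 6 as well, while Eif1ad was called lower without shNT replicate 4.

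Of the 3 genes for subunit joining, eIF5A and eIF6, Eif5b fell. This GTPase gene (chr1:37998010-38055579, GRCm38) stood at 324, 335, 310.5 and 390.4 CPM in the shNT libraries, 166 and 205 CPM with sh1Ybx1, and 224 and 223 CPM with sh2Ybx1. The highest knockdown library was well under the lowest shNT library, and it fell with each hairpin alone (log2 fold change -0.74, SE 0.13, adjusted p = 0.00653). Eif5a, whose protein carries hypusine and eases stalled elongation, and Eif6, which keeps the large subunit from joining too early, had log2 fold changes of -0.11 and -0.27. Without shNT replicate 4 both Eif5a and Eif6 were called lower. Eif5a stood at 564 CPM in that library and at 1245, 1700 and 1594 CPM in shNT replicates 1, 2 and 3.

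Among the 6 elongation factor genes, Eef2 fell and the others did not pass the test. Eef2 (chr10:81176631-81182498, GRCm38) stood at 7316, 5348, 6917 and 12947 CPM in the shNT libraries, 2862 and 3325 CPM with sh1Ybx1, and 4024 and 3918 CPM with sh2Ybx1. Every knockdown library was below every shNT library, and shNT replicate 4 was far above the rest (log2 fold change -1.21, SE 0.28, adjusted p = 0.0144). With shNT replicate 4 left out, its log2 fold change was -0.93 (adjusted p = 0.000887), and without any 1 of the 4 knockdown libraries the adjusted p was 0.0502 to 0.0714. Eef1a1, by far the most abundant member, stood at 13713, 12774, 14189 and 21715 CPM in the shNT libraries, 13038 and 13474 CPM with sh1Ybx1, and 13508 and 12992 CPM with sh2Ybx1. Apart from shNT replicate 4, all 7 libraries lay between 12774 and 14189 CPM (log2 fold change -0.23, SE 0.21, adjusted p = 0.423).

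The eEF1B subunits, which exchange the nucleotide on eEF1A, were unlike each other. Eef1g stood at 1649.6, 1394, 1579 and 2575 CPM in the shNT libraries, 1014 and 1049.8 CPM with sh1Ybx1, and 1405 and 1342 CPM with sh2Ybx1, with sh2Ybx1 replicate 1 just above the lowest shNT library and the other knockdown libraries below it, and it missed the threshold (log2 fold change -0.60, SE 0.21, adjusted p = 0.0605). It was called lower with DESeq2 (adjusted p = 0.0165) and without shNT replicate 2 or 4 (0.0407 and 0.0102), and over all alternatives its adjusted p was 0.0102 to 0.176. Eef1b2 stood at 1740, 1743, 1458 and 2351 CPM in the shNT libraries, 1943 and 1862 CPM with sh1Ybx1, and 2488 and 2190.5 CPM with sh2Ybx1, with overlapping groups (log2 fold change 0.21, SE 0.17, adjusted p = 0.389). Without shNT replicate 4, Eef1b2 was called higher. Eef1d, a further exchange subunit, had a log2 fold change of 0.14. Eef1e1, which bears the name but codes for a protein of the multi-tRNA synthetase complex, had a log2 fold change of 0.49.

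The 5 genes for enzymes that act on elongation factors gave 0 calls, with 0 at an unadjusted p under 0.05 and 0 with DESeq2, while Eef1akmt1 was called higher without shNT replicate 4. Eef2k, the kinase that inactivates eEF2, had a log2 fold change of -0.15 (adjusted p = 0.662). Eef2kmt, a lysine methyltransferase of eEF2, stood at 8.28, 8.27, 8.70 and 7.56 CPM in the shNT libraries, 9.62 and 9.32 CPM with sh1Ybx1, and 9.98 and 9.41 CPM with sh2Ybx1. Its groups did not overlap, with all knockdown libraries slightly higher (log2 fold change 0.22, SE 0.13, adjusted p = 0.232). Eef1akmt1, a lysine methyltransferase of eEF1A, stood at 18.2, 32.7, 22.5 and 4.98 CPM in the shNT libraries, 34.1 and 36.8 CPM with sh1Ybx1, and 37.2 and 37.8 CPM with sh2Ybx1, again without overlap but with a wide spread in shNT (log2 fold change 0.89, SE 0.45, adjusted p = 0.167). Eef1akmt2 and Eef1akmt3 were at 0.11 and -0.31.

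The hairpins were also taken 1 at a time. With sh1Ybx1 alone 11 members (19.6%) fell and 0 rose, against 7.96% lower and 11.2% higher of all genes tested. With sh2Ybx1 alone 5 (8.93%) fell and 1 (1.79%) rose, against 9.45% and 10.4%. Of the protein-coding genes tested, 9.16% fell and 9.6% rose with sh1Ybx1, and 10.6% fell and 7.52% rose with sh2Ybx1. The share of members lower thus lay above that of all genes with sh1Ybx1 and not with sh2Ybx1. Eif2s3x, Eif3c, Eif4b and Eif5b fell with each, at log2 fold changes of -0.87, -1.20, -1.13 and -0.87 with sh1Ybx1 and -0.58, -1.30, -1.17 and -0.61 with sh2Ybx1. Both comparisons share the shNT libraries. Tested against each other, the hairpins gave 0 calls among the 56 members (edgeR), against 0.524% of all genes tested, with 4 members at an unadjusted p under 0.05 and 1 called by DESeq2. The members' level fit was lower with sh1Ybx1 than with sh2Ybx1 in 43 of the 56, and the median difference was -0.11. Over all genes tested it was lower in 6933 of 13552, with a median of -0.012. Among the protein-coding genes tested it was lower in 5624 of 11283, with a median of 0.00084. With sh1Ybx1 alone the count was 0 lower without either of its libraries and 24 lower and 2 higher without shNT replicate 4 (22.3% and 21.4% of all genes), and 5 or 7 lower without replicate 1 or 2 of sh2Ybx1. With sh2Ybx1 alone it was 0 in both directions without either of its libraries, 18 lower and 5 higher without shNT replicate 4 (23.2% and 20% of all genes), 2 lower and 0 higher without either replicate of sh1Ybx1, and 0 higher without shNT replicate 1. Between the hairpins it was 4 without shNT replicate 4, when 12.3% of all genes were called.

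Levels of different genes can be set side by side only on the length-scaled TPM values. TPM is a relative transcript abundance that allows for gene length. In shNT, the 5 most abundant members were Eef1a1 at 15727 ± 2409, Eef1b2 at 3729 ± 273, Eef2 at 2806 ± 849, Eef1g at 1589.6 ± 266 and Eif1 at 1136 ± 187 TPM (mean ± SD, n = 4). In that order the means ± SD of Eef1b2 and Eef2 overlapped, though Eef1b2 was above Eef2 in every shNT library. The means ± SD of the other neighbours among the 5 did not overlap. Eif5a followed at 1082 ± 476 TPM, overlapping Eif1, and was above Eif1 in every shNT library but replicate 4. The least abundant was Eef1akmt3 at 1.16 ± 1.23 TPM. All 56 together took 3.35, 3.18, 3.63 and 3.84% of the TPM in the shNT libraries, 2.62 and 2.97% in sh1Ybx1 and 2.86 and 2.94% in sh2Ybx1. Every knockdown library was below every shNT library in that share, and the same held with Eef1a1 left out (1.85 to 2.03% against 1.40 to 1.67%). In bulk RNA a change in the kinds of cells and a change in RNA per cell cannot be told apart.

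Splicing of these genes was described from the deposited sheets. The authors' deposited table of splicing events listed 579 events in 50 of the 56 members, of which 31 in 15 members had an unadjusted p under 0.05, or 5.35%. Over all 26982 events listed with a delta PSI (the difference in the share of transcripts spliced in) the share was 7.15%, so the members did not stand above it. Retained introns made up 18 of the 31. In that class 18 of 68 member events passed, or 26.5%, near the 23.6% of all retained introns listed. The header does not say which group is subtracted. Over all genes, the exon bins inside such introns had the same sign as delta PSI in 74 of 74 cases and the shares of annotated retained-intron transcripts in 224 of 269, the bins being labelled knockout over control. A positive delta PSI was therefore read as more intron in the knockdown cells. On that reading 16 of the 18 member introns were higher in the knockdown cells, 0 were lower and 2 had a delta PSI of 0, while over all retained introns past the threshold 93.5% were above 0.

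The leading event, ranked 2 of all 26982 by p, lay in Eif3a, within intron 20 of the 21 of its coding transcript Eif3a-201. This retained intron (edges chr19:60763264-60764004, GRCm38) had a delta PSI of 0.421 and p = 3.42e-10 in the authors' deposited table. One edge matched an annotated exon and the other did not, and a complex event on the whole annotated intron had a delta PSI of 0.0691 and p = 0.00864 in the authors' deposited table. Eif4b had the next, in intron 14 of 14 of Eif4b-201, with p = 1.17e-08 and a delta PSI of only 0.0262 in the authors' deposited table. Eef2kmt retained intron 4 of 7 with a delta PSI of 0.233 and p = 0.000168 in the authors' deposited table. Eef2 had a retained intron with a delta PSI of 0.111 (p = 8.22e-05) and intron 12 of 13 with 0.0112 (p = 0.00191), both in the authors' deposited table.

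Eif4g2 had the most retained introns past p under 0.05, 6 of them. Their delta PSI values in the authors' deposited table were 0.232, 0.264, 0.287, 0.0699, 0.0140 and 0. Eef1g had 2 complex events with a delta PSI of 0.341 and 0.362 (p = 0.000168 and 0.000558) in the authors' deposited table. In Eif4a1, a retained intron of delta PSI 0.164 and p = 0.0422 in the authors' deposited table overlaps the small nucleolar RNA gene Gm24029. Its reads cannot be told apart from those of the intron. Adjusted over all events listed, 12 member events in 7 members kept a p under 0.05.

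Introns whose bases lie within an annotated GENCODE M21 transcript could be read out for members on the GRCm38 build, and those of Eef2 and Eif4g2 are given to show the kind of intron counted as retained. Both match annotated introns within the coding part of the gene. Their delta PSI in the authors' deposited table was small, 0.0112 for Eef2 and 0.0699 for Eif4g2. Neither event kept a p under 0.05 after Benjamini and Hochberg adjustment over all events listed (0.0963 and 0.461). The capitals mark the splice donor and acceptor dinucleotides. Eef2 intron 12 of 13 (chr10:81181411-81181492, plus strand) is 48.8% G and C. Eif4g2 intron 18 of 21 (chr7:111074545-111074679, minus strand) is 35.6% G and C.
Eef2 intron: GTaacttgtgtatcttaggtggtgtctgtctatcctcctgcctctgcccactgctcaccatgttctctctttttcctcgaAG
Eif4g2 intron: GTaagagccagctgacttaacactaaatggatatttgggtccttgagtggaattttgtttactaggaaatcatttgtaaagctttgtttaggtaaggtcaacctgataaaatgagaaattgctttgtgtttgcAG

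**Figure D3:**
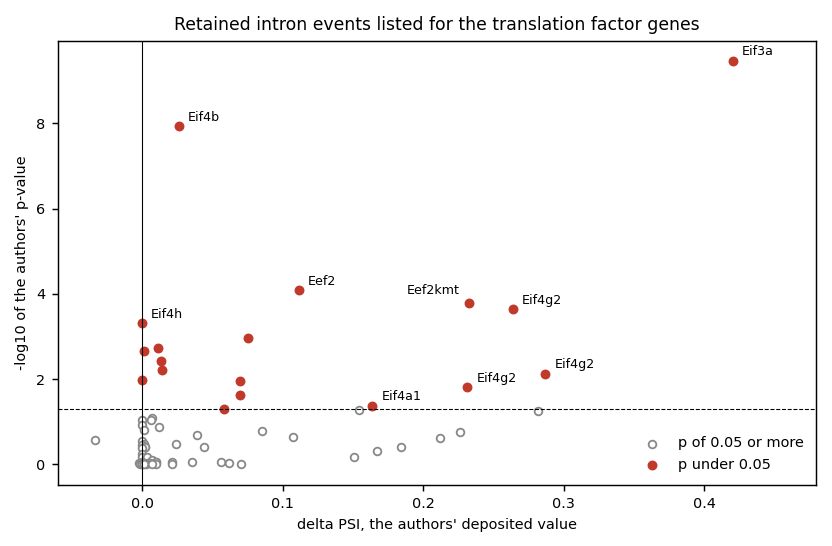
The 68 retained introns listed for the members, by the authors' delta PSI (positive read as more intron after knockdown) and the -log10 of the authors' unadjusted p; the dashed line is 0.05 and filled points lie above it. Eif3a stands alone at the top right with a delta PSI of 0.421, and no filled point lies left of 0.

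The shares of transcripts within a gene, taken from the deposited TPM values, gave a second view. In genes of at least 1 TPM, 132 member transcripts had a mean share of 5 to 95%. Of these, 15 in 12 genes had shares that did not overlap between the 4 shNT and the 4 knockdown libraries. That was 11.4%, against 4.21% of all 28787 such transcripts, which were not matched to the members by expression level. Shares within a gene depend on each other, and Eef2, Eef2kmt and Eif3j1 each gave a pair of the 15. Each of the 15 has an exact 2-sided permutation p of 0.0286, the smallest 4 against 4 can give. That p is fixed by the lack of overlap by which they were chosen, and adds nothing to it. The retained-intron transcript Eef2-202 made up 5.71, 4.75, 4.96 and 6.09% in the shNT libraries, 7.77 and 9.25% with sh1Ybx1, and 11.3 and 10.8% with sh2Ybx1. It rose in both hairpins while the coding transcript Eef2-201 fell from 94.4 ± 0.674% in shNT to 88.3 ± 1.63%. In Eef2kmt, the coding transcript Eef2kmt-201 made up 76.4, 98.3, 50.0 and 83.7% in the shNT libraries, 0 and 0% with sh1Ybx1, and 0 and 26.2% with sh2Ybx1, and the retained-intron transcript Eef2kmt-202 made up 0, 0, 0 and 0% in the shNT libraries, 2.33 and 44.3% with sh1Ybx1, and 65.7 and 32.7% with sh2Ybx1. That gene had a mean of only 8.25 TPM, so its shares rest on few reads. Eif4h-204, another retained-intron transcript, made up 6.14, 0, 2.64 and 7.68% in the shNT libraries, 12 and 17.4% with sh1Ybx1, and 9.14 and 9.97% with sh2Ybx1.

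Other transcripts moved as well, most of them coding. The main coding transcript of Eef1g, Eef1g-201, fell from 93.1 ± 4.04% in shNT to 81.7 ± 7.27%. Eif4g2-203, a coding transcript, made up 20.5, 25.0, 26.1 and 22.0% in the shNT libraries, 13.8 and 15.9% with sh1Ybx1, and 12 and 7.60% with sh2Ybx1. In Eif4a2, the gene that rose, the coding transcript Eif4a2-202 made up 26.9, 24.5, 21.1 and 12.4% in the shNT libraries, 34.4 and 34.8% with sh1Ybx1, and 35.2 and 48.7% with sh2Ybx1. The coding transcripts Eif2d-202 and Eif2b3-203 fell from 94.9 ± 3.55% in shNT to 80.0 ± 8.58% and from 97.2 ± 1.97% in shNT to 83.5 ± 10.6%. The coding transcript Eif5a-205 rose from 1.96 ± 3.62% in shNT to 13.3 ± 5.33%. Among transcripts that are not annotated as protein coding, Eef1b2-208, annotated as subject to nonsense-mediated decay, fell from 13.6 ± 0.747% in shNT to 11.6 ± 0.936%, and Eif4a3-203, a processed transcript, from 13.0 ± 4.50% in shNT to 1.62 ± 3.25%. Both non-overlapping transcripts of Eif3j1 belong to the gene with an identical copy, and their shNT shares ran from 46.9 to 100% for Eif3j1-201. Without 1 library the count was 17 to 22 transcripts, and the share over all transcripts 6.52 to 7.73%.

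**Figure D4:**
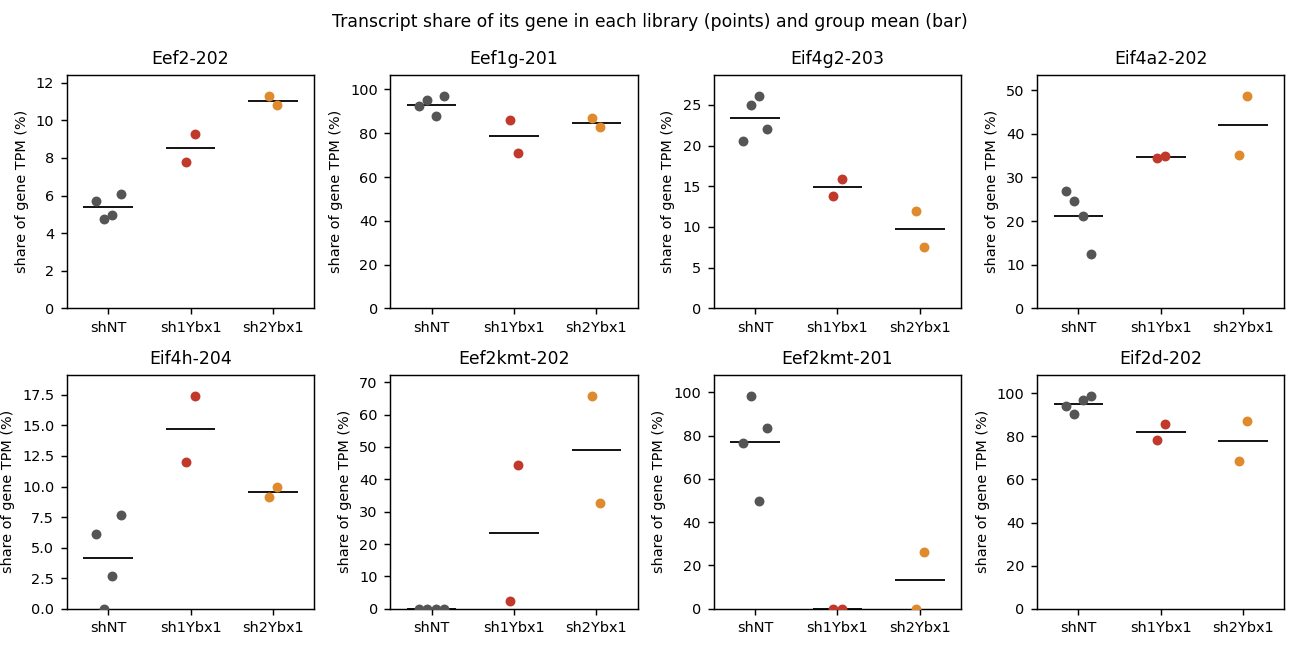
Share of its gene's TPM taken by each of 8 transcripts, in percent, in each library (points) with the group mean (bar); each panel has its own axis from 0. Eef2-202, Eif4a2-202, Eif4h-204 and Eef2kmt-202 lie higher in every knockdown library, and the other 4 lie lower.

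The authors' deposited table of exon bins held 581 bins in 461 genes, all with an adjusted p under 0.01, so a share of bins tested cannot be given. Of the members 5, or 8.93%, had a bin, against 3.34% of the count table's genes, which were not matched by expression level. Each member bin had a positive log2 fold of knockout over control, as 93.5% of all listed bins did. Each bin's reads were also set against the gene's own counts. In Eif5b, bin E029 of 797 bases (chr1:38050326-38051122) lies in an intron of the coding transcript Eif5b-201 and in the retained-intron transcript Eif5b-202, and took 3.61, 3.50, 0.768 and 3.60 of every 1000 gene reads in the shNT libraries, 9.98 and 8.14 with sh1Ybx1, and 12.9 and 10.4 with sh2Ybx1. The authors' deposited table gave it a log2 fold of 1.85 and an adjusted p of 0.00118. In Eef1g, bin E006 (chr19:8972404-8972506) lies in an intron of Eef1g-201 and in the retained-intron transcript Eef1g-205, and took 2.12, 1.58, 1.19 and 0.510 of every 1000 gene reads in the shNT libraries, 5.08 and 3.58 with sh1Ybx1, and 4.64 and 4.66 with sh2Ybx1. Its log2 fold in the authors' deposited table was 1.83 (adjusted p = 0.000342).

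The Eif4a1 bin E003 (chr11:69667618-69667694), which lies in no coding transcript's exon, had the smallest adjusted p in the authors' deposited table, 1.72e-08, with a log2 fold of 1.48. It took 1.62, 1.13, 0.916 and 1.92 of every 1000 gene reads in the shNT libraries, 4.09 and 3.35 with sh1Ybx1, and 3.71 and 3.23 with sh2Ybx1. In Eif5, bin E003 (chr12:111538853-111538947) lies in exons of the coding transcripts Eif5-201 and Eif5-203 but outside their coding parts, and took 3.71, 2.95, 2.74 and 3.16 of every 1000 gene reads in the shNT libraries, 7.11 and 5.57 with sh1Ybx1, and 8.95 and 10.9 with sh2Ybx1; the authors' deposited table gave 1.32 and an adjusted p of 9.99e-06. In Eif4e2, bin E008 (chr1:87226234-87226607) lies in an exon of the coding transcript Eif4e2-205, overlaps coding bases and took 16.5, 11.7, 8.62 and 14.7 of every 1000 gene reads in the shNT libraries, 21.7 and 21.5 with sh1Ybx1, and 28.6 and 25.3 with sh2Ybx1; the authors' deposited table gave 1.04 and 0.000160. The Eif5 bin also lies in introns of the coding transcripts Eif5-202, Eif5-212, Eif5-213 and Eif5-214, and within the retained-intron transcript Eif5-209. Likewise the Eif4e2 bin lies in introns of the coding transcripts Eif4e2-201, Eif4e2-202, Eif4e2-204, Eif4e2-206 and Eif4e2-207. In all 5 bins every knockdown library was above every shNT library. Eif5, Eif4a1 and Eif4e2 did not pass the test at the level of the gene, and Eif5b fell there.

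**Figure D5:**
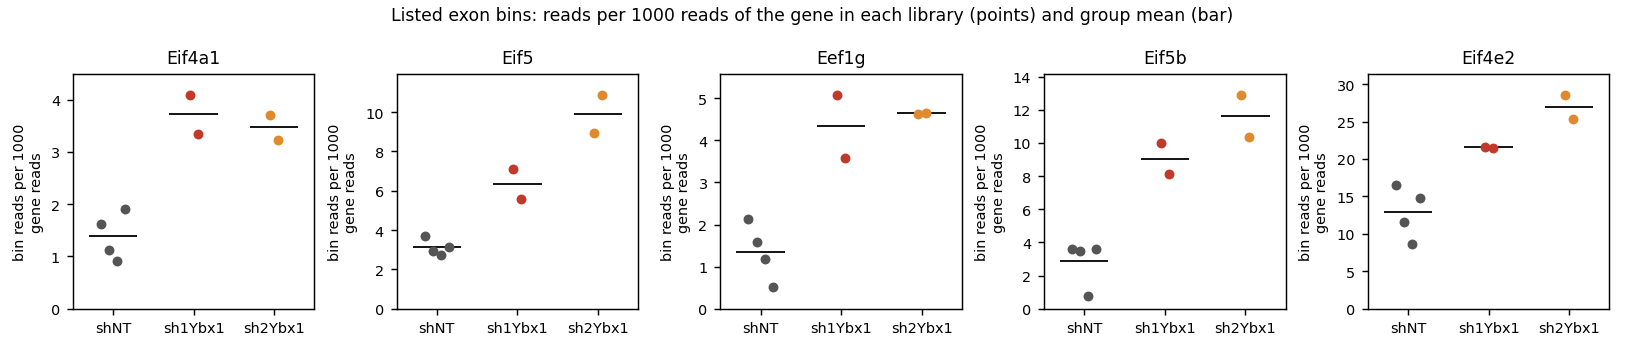
Reads in each of the 5 listed exon bins per 1000 reads of its gene, in each library (points) with the group mean (bar); each panel has its own axis from 0. Every knockdown point lies above every shNT point, with the sh2Ybx1 points highest in the Eif5, Eif5b and Eif4e2 panels.

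Promoter sequences from RefSeq (GRCm38.p6, 250 bases before to 50 after the annotated start) matched 43 of the 56 members, with 57 promoters. The letters CACGTG, a motif bound by MYC and related factors and the same on both strands, stood in 13 of the 57, or 22.8%, against 7.15% of all 32851 promoters. Those 32851 promoters were not limited to genes of the count table. The letters were found in 11 members: Eef2, Eef2k, Eif1b, Eif3a, Eif3f, Eif3k, Eif4a1, Eif4e, Eif4g1, Eif4h and Eif5a. Of those 11, 3 fell and 0 rose, with a median log2 fold change of -0.15, and of the 32 without it 9 fell and 1 rose, with a median of -0.25. TGATGNAA, searched on both strands, stood in 3.51% of member promoters and 3.97% of all. A C at the annotated start followed by at least 4 more pyrimidines, searched on the gene's strand, stood in 3.51% of member promoters (Eif2s3x and Eif3f) and 2.51% of all. Such a match is a description of letters near an annotated start only. The bases round the motif in 2 genes that fell are given with CACGTG in capitals, Eef2 at chr10:81176568-81176613 on the plus strand and Eif4h at chr5:134639480-134639525 on the minus strand.
Eef2 upstream: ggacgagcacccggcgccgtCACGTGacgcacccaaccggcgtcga
Eif4h upstream: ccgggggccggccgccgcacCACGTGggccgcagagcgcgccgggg

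Genes that regulate these factors or act after them were counted in the same fit. Of 35 tested regulators of initiation and elongation, 12 fell and 3 rose, or 34.3% and 8.57% beside the 14.2% and 14.8% of all genes tested, with a median log2 fold change of -0.28. The 4 with the smallest adjusted p all fell. They were Mknk1, a kinase of eIF4E (log2 fold change -0.92, SE 0.17, adjusted p = 0.00750), and Eif4ebp2, an inhibitor of eIF4E (log2 fold change -0.56, SE 0.11, adjusted p = 0.00799). Atf4, the transcription factor of the integrated stress response (log2 fold change -1.13, SE 0.22, adjusted p = 0.00817), and Gigyf2, which with Eif4e2 represses translation (log2 fold change -0.64, SE 0.13, adjusted p = 0.00996), were the others. Mknk1, Atf4 and Gigyf2 were called lower with each hairpin alone. Eif4ebp2 fell with sh2Ybx1 (log2 fold change -1.07, adjusted p = 0.00504) and not with sh1Ybx1 (-0.06, adjusted p = 0.775). It was called between the hairpins (adjusted p = 0.0426). The 2 smaller lists lay below both of those shares, with 1 gene of 10 in each direction. Of 10 tested genes for termination, recycling and rescue, 1 fell and 1 rose: Hbs1l (log2 fold change -0.48, SE 0.16, adjusted p = 0.0494) and Mcts1 (log2 fold change 0.57, SE 0.10, adjusted p = 0.00658). Of 10 tested mitochondrial translation factors, 1 fell and 1 rose: Gfm1 (log2 fold change -0.56, SE 0.15, adjusted p = 0.0263) and Mtif3 (log2 fold change 1.14, SE 0.27, adjusted p = 0.0163). Mtif3 had few counts, at 0.398 to 0.671 CPM in shNT and 0.961 to 1.41 CPM in the knockdown libraries, and its TPM values ran the other way without overlap, from 28.9 to 44.2 TPM in shNT and 23.5 to 28.4 TPM in the knockdown libraries.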

How the data were processed

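RNA sequencing of 8 BaF3 Jak2V617F libraries was grouped by hairpin from the sample titles. The genes and lists were chosen with earlier results of these data known. Raw counts per gene, deposited by the authors, were tested with edgeR 4.0.16 (quasi-likelihood, TMM scaling, filterByExpr, 1 fit of 3 group means over all libraries). P-values were adjusted by Benjamini and Hochberg over 13552 genes and called under 0.05. Standard errors were derived from the fold change and the test's F value. DESeq2 1.42.0, limma 3.58.1 (pseudocount 1) and single libraries left out were alternatives. TPM and FPKM values, per the file headers, were deposited per gene and transcript. In the authors' exon sheet, the log2 fold, adjusted p-value and count per bin were used as deposited, and delta PSI is a score with a p-value in the authors' splicing sheet, one event without it being left out. STAR, RSEM, featureCounts and limma, and the builds GRCm38 and mm9, are named in the submitters' processing notes without roles; the program behind the events and a strand setting are not given in the sources used here. Event edges fitted GRCm38, with 39 of 68 member retained introns matching annotated GENCODE M21 introns. Delta PSI values under 1e-06 in size were read as 0.

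Genes with values in every library are the 6 lowest and 6 highest called members, the 5 most abundant, and up to 6 with splicing rows. Others were named after their values were seen. The counting intervals of single genes are not given; depth was 22779437 to 37549926 counts a library.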

Additional observations from a re-analysis of the deposited data

Results flagged for a closer look

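Among the 56 genes, 3 had 1 shNT library far from the other 3, by the ratio of its gap to the whole range. Each time it was replicate 4, and chance flags about 1 in 20 groups. Eif2a stood at 302 CPM there against 151 to 157 CPM in the others. Eef1a1 stood at 21715 CPM against 12774 to 14189 CPM. Eif3k stood at 222 CPM against 144 to 156 CPM. None of the 3 was called in the comparison with both hairpins.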

How the results depend on the processing

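For both hairpins against shNT (14 lower, 1 higher), limma on log2(TPM + 1) gave 4 and 0, limma on log2(FPKM + 1) 2 and 0, and genes of at least 5 mean TPM 2 higher. DESeq2 gave 19 and 1. Leaving out single libraries gave 4 to 25 lower and 0 to 4 higher. With sh1Ybx1 alone (11 and 0), limma gave 1 lower on TPM and 0 on FPKM, the TPM floor gave 1 higher, and left-out libraries 0 to 24 lower and 0 to 2 higher. With sh2Ybx1 alone (5 and 1), limma gave 1 and 0 on TPM and 0 and 0 on FPKM, DESeq2 gave 11 lower, and left-out libraries 0 to 18 lower and 0 to 5 higher. Between hairpins (0), DESeq2 gave 1 and left-out libraries 0 to 4. The median of -0.22 was -0.063 with limma on FPKM and -0.27 to -0.20 with libraries left out, at one sign throughout. Of the 15 called members, 14 kept their direction under all 15 alternatives and 2, Eif3c and Eif4b, kept the call; Eif3j1 reversed to 0.082 and 0.25 with limma on TPM and FPKM. Same-numbered libraries did not deviate together in every pair, so the replicate block is given here only: it made 25 lower and 4 higher with both hairpins, 25 and 3 with sh1Ybx1, 21 and 9 with sh2Ybx1, and 12 between hairpins, beside 24.8% lower and 24.3% higher, 22.3% and 23%, 22.9% and 22%, and 22.6% of all genes. Under it Eef1g (adjusted p = 0.0243), Eif3b and Eif1ad were called lower and Eef1akmt1 higher. Replicate numbers 3 and 4 occur only in shNT, so in the block fit the contrasts rested on shNT replicates 1 and 2 alone. Its counts therefore do not show an effect of pairing apart from that of leaving out shNT replicates 3 and 4. Members with splicing events (15) numbered 9 at p under 0.01, 7 after adjustment over all events and 7 with a delta PSI of at least 0.1. Members with exon bins stayed 5. Non-overlapping transcripts (15) stayed 15 on FPKM and at 5 TPM, and were 17 to 22 without a library. Allowing the pyrimidine tract within 10 bases of the start gave 29.8% of member promoters against 30.7% of all. The cause of these differences was not tested.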
